A study of Mus musculus with 6 samples.

Results

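Collagen genes were taken as every gene in the deposited count table whose symbol has the form Col, a number, a and a second number. This rule found 43 of the 20173 genes in the table. They were grouped by the structure of the protein into 11 fibrillar, 9 network-forming, 9 fibril-associated (FACIT) and 14 other collagens. RNA was sequenced from 6 cultures, 3 from Slit2fl/fl mice, the controls with the floxed Slit2 allele, and 3 from Slit2th mice, which carry the same floxed allele and express Cre recombinase under the tyrosine hydroxylase (Th) promoter. By the study's RNA-Seq method the mice were 3-week-old males, and their sympathetic chains were cultured for 4 to 5 days in neural medium with B27. The labels name sympathetic ganglion as tissue and neuron as cell type, whereas the isolation method refers to dorsal root neurons, so the exact material is not certain. No source used here says how many animals went into each culture, so p-values measure only the spread between these samples, which may be technical.

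Collagens are triple-helical proteins of the extracellular matrix, and each gene encodes an α chain that assembles with other chains into a trimer. Fibrillar collagens form the tensile fibres of connective tissue, network collagens such as type IV form the sheet of basement membranes, and FACITs sit on the surface of fibrils. In peripheral ganglia and nerves, collagen is made largely by fibroblasts and Schwann cells, and the basement membrane around Schwann cells contains type IV collagen.

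Total counts were between 1255939 and 3155406 per library. Slit2 itself measured 44.5, 55.1 and 43.8 CPM (counts per library total scaled by TMM) in the Slit2fl/fl cultures, numbered 1, 2 and 3. In the Slit2th cultures the values were 15, 11.5 and 15.2 CPM. Every Slit2th library lay below every Slit2fl/fl library, so no label went against the targeted gene, although its adjusted p was 0.422 in edgeR's quasi-likelihood test. Among the markers of sympathetic neurons, Th had no count in any library. Of the neuron markers, 12 of 13 measured genes were detected, but only 4 reached at least 1 CPM in at least 3 libraries. The sum of the list was 588, 192.5 and 197 CPM in Slit2fl/fl, against 191, 201 and 184 CPM in Slit2th. Slit2fl/fl replicate 1 stood far above the other libraries, and the groups overlapped. The summed Schwann cell and satellite glia markers, 15 of 15 detected, amounted to 6115 to 12050 CPM in Slit2fl/fl, against 13660 to 20330 CPM in Slit2th. The glial sum exceeded the neuronal sum in every library. In such bulk samples, fewer cells of a type and less RNA per cell cannot be told apart.

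Of the 43 collagen genes, 25 passed the filter of at least 1 CPM in at least 3 libraries and were tested, and 18 did not. Among those 18, Col2a1, Col6a5 and Col22a1 had no count at all, 7 had a single count over all 6 libraries, and the other 8 had between 2 and 6 counts in total. A total of 3 counts over the summed libraries corresponds to 0.263 CPM, so these genes were at or near the limit of detection, which covers counting error only. Of the chains known from cartilage, Col2a1, Col9a1, Col9a2, Col11a2 and Col10a1 were in this set, whereas Col9a3, Col11a1 and Col27a1 passed the filter.

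Collagen RNA was dominated by chains of types I and V. Col1a2, Col5a2 and Col1a1 together held between 67.5% and 74.2% of the summed collagen CPM in each library, and the fibrillar group as a whole held 73.8% to 83.6%. Per kb of exon, Col1a2 was highest at 158 ± 36.4 CPM (SD over 6 libraries), followed by Col5a2 at 74.0 ± 20.9 and Col1a1 at 67.8 ± 11.8 CPM per kb. Col1a2 exceeded Col5a2 in 6 of 6 libraries, and Col5a2 exceeded Col1a1 in 5 of 6. The next 5 genes were Col18a1 at 25.7, Col4a1 at 19.9, Col8a1 at 19.7, Col4a2 at 17.5 and Col3a1 at 15.8 CPM per kb. Neighbours among these 5 exceeded each other in only 3 or 4 of the 6 libraries, so their order did not go beyond the spread. It also changed when the longest coding transcript was used as the length, which placed Col8a1 at rank 5 and Col3a1 at rank 6. With that length the first 3 genes kept their order, but at 367 CPM per kb for Col1a2, 107 for Col5a2 and 75.0 for Col1a1.

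**Figure D1:**
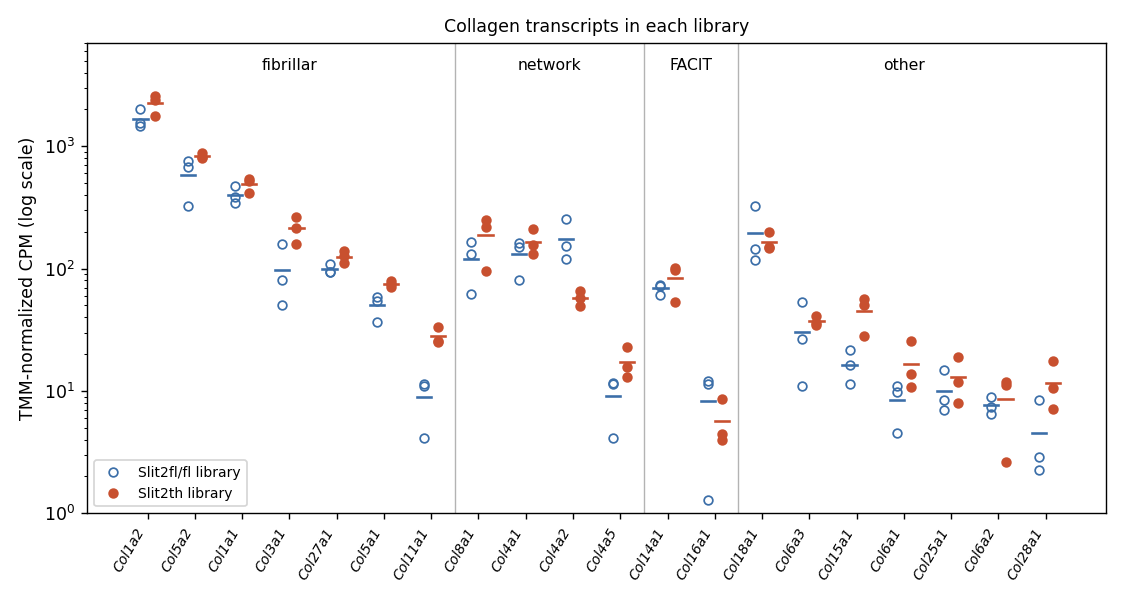
TMM-normalized CPM on a log scale for the 20 collagen genes with the highest mean level, arranged by structural group. Open blue circles are Slit2fl/fl libraries, filled red circles are Slit2th libraries and short lines are group means of 3 libraries. Col4a2 is the abundant gene whose Slit2th libraries all lie below the Slit2fl/fl libraries, whereas those of Col5a2, Col5a1, Col27a1, Col11a1, Col4a5 and Col15a1 all lie above.

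The comparison of the genotypes asks how Cre deletion of Slit2 under the Th promoter went with collagen transcript levels. Th itself had no count in these cultures, as given above. None of the 25 tested collagen genes passed an adjusted p of 0.05 in edgeR's quasi-likelihood test, as was true of all 12152 genes tested (0.0%). No collagen gene passed in DESeq2, which called 34 genes in the table. DESeq2 gave no adjusted p for Col5a3, Col4a4, Col16a1, Col12a1, Col9a3, Col6a2, Col28a1 and Col7a1, so these could not pass there. At an unadjusted p under 0.05, edgeR listed 3 collagen genes as higher in Slit2th (Col11a1, Col15a1 and Col3a1) against 3.99% of all genes, and 1 as lower (Col4a2) against 6.78%. These are 4 of 25 in both directions, against 10.8% of all genes tested. The fitted log2 fold change was positive for 20 of the 25, against 47.8% of all genes, and its median was 0.39 against -0.05 over all genes. In 6 of the 25 every Slit2th library lay above every Slit2fl/fl library (8.74% of all genes), and in 1 every one lay below (9.72%). Summed over all 43 genes, collagen RNA measured 3338, 4257 and 3562 CPM in the Slit2fl/fl libraries, against 4158, 5049 and 5344 CPM in Slit2th. The sums overlapped, and their mean difference was 0.38 on the log2 scale with an SD between replicates of 0.186.

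**Figure D2:**
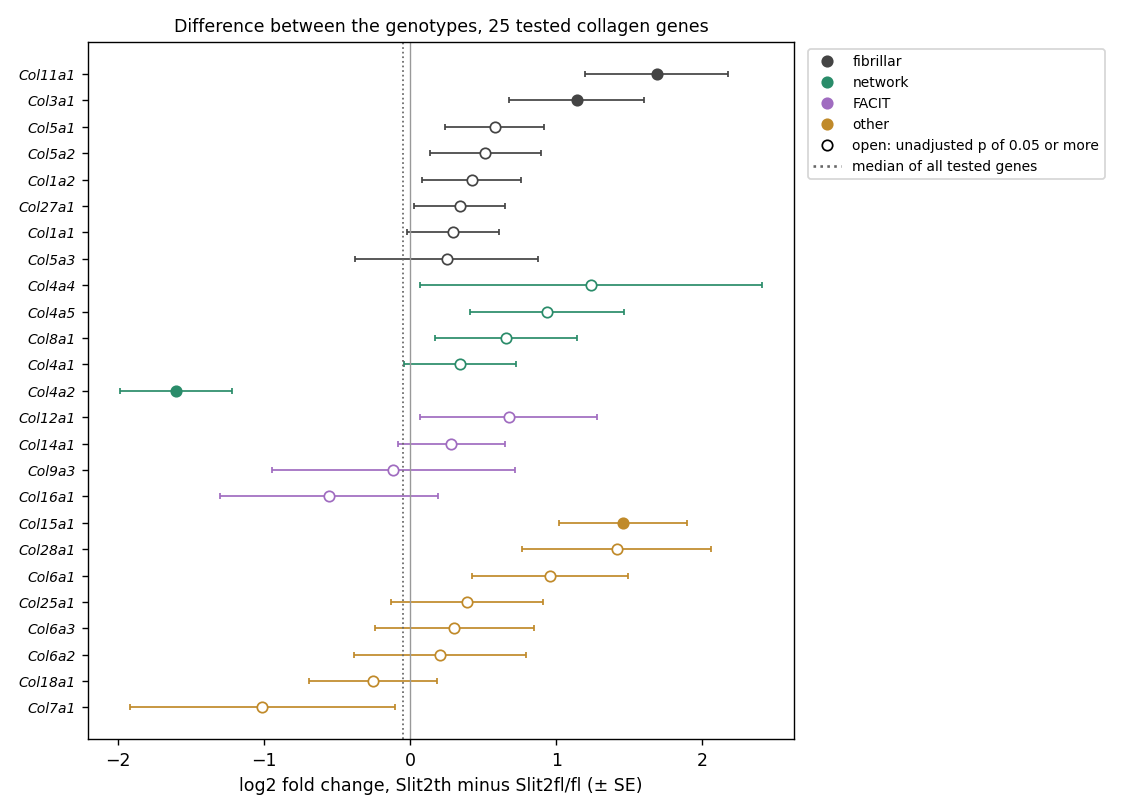
Fitted log2 fold change, Slit2th minus Slit2fl/fl, with its SE for the 25 tested collagen genes, coloured by structural group. Filled points have an unadjusted p under 0.05 in edgeR, and the dotted line is the median of all 12152 tested genes. All 8 fibrillar points lie right of 0, and Col4a2 is lowest at -1.60.

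The 250 bases before the RefSeq start (GRCm38.p6) were available for 34 of the 43 collagen genes. They are shown for the genes listed as higher at an unadjusted p, Col3a1, Col11a1 and Col15a1, so that their starts can be compared, 5′ to 3′ on the strand of the gene and with no annotated exon in the window. Capitals mark matches to 3 promoter motifs, each searched on both strands. These were TATAAA, the core of the TATA box bound by TBP, then CCAAT, the box bound by NF-Y, and GGGCGG, the GC box bound by Sp1 proteins. No matches overlapped in these windows.
Col3a1, chr1:45311288-45311537, plus strand: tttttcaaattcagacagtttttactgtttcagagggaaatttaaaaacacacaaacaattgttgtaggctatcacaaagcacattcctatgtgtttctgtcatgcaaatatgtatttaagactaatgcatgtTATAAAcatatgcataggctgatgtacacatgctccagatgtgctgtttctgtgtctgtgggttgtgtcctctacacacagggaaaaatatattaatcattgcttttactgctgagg
Col11a1, chr3:114030290-114030539, plus strand: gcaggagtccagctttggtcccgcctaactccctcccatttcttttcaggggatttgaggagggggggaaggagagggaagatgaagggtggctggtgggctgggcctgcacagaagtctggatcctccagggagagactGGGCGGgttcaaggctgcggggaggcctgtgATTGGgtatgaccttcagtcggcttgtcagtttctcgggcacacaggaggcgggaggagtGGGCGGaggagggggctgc
Col15a1, chr4:47207762-47208011, plus strand: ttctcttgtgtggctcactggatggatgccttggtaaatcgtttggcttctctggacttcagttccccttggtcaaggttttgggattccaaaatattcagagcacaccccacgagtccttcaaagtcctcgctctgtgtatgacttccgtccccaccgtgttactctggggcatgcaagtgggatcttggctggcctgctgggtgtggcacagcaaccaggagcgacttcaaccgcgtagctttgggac

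None of the 3 motifs was found in all 3 windows. Col3a1 held a TATAAA match that begins 117 bases before the start, Col11a1 held GGGCGG matches at 110 and 19 bases before the start and a CCAAT box on the opposite strand at 79 bases, and Col15a1 held none of the 3. The GC content of the windows was 35.2% for Col3a1, 62.4% for Col11a1 and 53.6% for Col15a1. Over all windows of collagen genes, 37 in number, TATAAA was found in 13.5%, CCAAT in 35.1% and GGGCGG in 56.8%, against 12.4%, 33.8% and 32.7% of the 32851 windows of all genes. The windows of Col4a1 and Col4a2 overlap an annotated exon of the other gene, and their sequence is not printed for that reason.

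The fibrillar collagens had positive log2 fold changes throughout, 8 of 8 tested, with a median of 0.47 and a range from 0.25 to 1.69. Across 18 alternative settings the median of this group lay between 0.33 and 0.80, and at least 7 fibrillar genes had a positive value. Summed over the group, fibrillar RNA measured 2463, 3460 and 2839 CPM in the Slit2fl/fl libraries, against 3476, 4188 and 4383 CPM in Slit2th. The groups did not overlap, although the lowest Slit2th library lay just above the highest Slit2fl/fl library.

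Col1a1 and Col1a2 encode the chains of type I collagen, the main fibre of skin, tendon and bone. Col1a2 measured 1454, 2021 and 1559 CPM in the Slit2fl/fl libraries, against 1770, 2393 and 2574 CPM in Slit2th. Col1a1 measured 473, 344 and 383 CPM in the Slit2fl/fl libraries, against 414, 539 and 517 CPM in Slit2th. The groups overlapped for both genes, and their log2 fold changes of 0.42 ± 0.34 (SE) and 0.29 ± 0.32 were close to their errors. The ratio of Col1a2 to Col1a1 per exon length was 1.63, 3.11 and 2.15 in Slit2fl/fl, against 2.26, 2.35 and 2.63 in Slit2th. The difference of this ratio between the genotypes was not larger than the spread (two-sided exact permutation p = 0.70). The size of the ratio depends on the length used. Mean levels of Col1a2 and Col1a1 were 158 and 67.8 CPM per kb of exon, but 367 and 75.0 per kb of longest coding transcript.

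Col3a1, the chain of type III collagen that forms thin fibres with type I and whose window holds TATAAA, measured 50.3, 159 and 81.3 CPM in the Slit2fl/fl libraries, against 158, 215 and 266 CPM in Slit2th. Its log2 fold change was 1.14 ± 0.46 (SE) (edgeR unadjusted p = 0.0359, adjusted p = 0.448). The highest Slit2fl/fl library and the lowest Slit2th library were nearly level, so the groups overlapped at that point, although not with the size factors of DESeq2. The gene Gm47302 overlaps Col3a1 (chromosome 1, 45311538 to 45349706) on the same strand, so reads there could be shared between them.

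Col5a1 and Col5a2 encode chains of type V collagen, which sits inside type I fibrils and sets their diameter. Col5a2 measured 328, 754 and 672 CPM in the Slit2fl/fl libraries, against 889.6, 817 and 798 CPM in Slit2th. Col5a1 measured 54.8, 58.3 and 37.0 CPM in the Slit2fl/fl libraries, against 75.0, 70.1 and 79.0 CPM in Slit2th. For both genes every Slit2th library lay above every Slit2fl/fl library, with log2 fold changes of 0.51 ± 0.38 and 0.58 ± 0.34 (SE) and unadjusted p of 0.210 and 0.124 in edgeR. Col5a1 is overlapped on the opposite strand by 2810430I11Rik and Gm13372, and the strand setting of the counting is not given in the sources used here. Col5a3 was the lowest fibrillar chain tested, at 2.27 to 5.44 CPM over all libraries.

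Col11a1 encodes a chain of type XI collagen, the partner of type II collagen in cartilage that also occurs in fibrils of other tissues. The gene lies on chromosome 3 at 114030540 to 114220718 (GRCm38) with 68 merged exons. It measured 4.16, 11.0 and 11.4 CPM in the Slit2fl/fl libraries, against 25.6, 25.3 and 33.3 CPM in Slit2th. Every Slit2th library held more than 2 times the CPM of the highest Slit2fl/fl library. Its log2 fold change of 1.69 ± 0.49 (SE) was the highest among the tested collagens (edgeR unadjusted p = 0.00715, adjusted p = 0.422). Col27a1, a fibrillar chain also known from cartilage, measured 94.1, 109.5 and 93.2 CPM in the Slit2fl/fl libraries, against 139, 126 and 111 CPM in Slit2th, with a log2 fold change of 0.34 ± 0.31.

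Of the chondrocyte markers 3 of 4 measured genes were detected, with Hapln1 at 0. Nearly all of their sum came from Sox9, which Schwann cells and other glia also express. The sum was 16.3, 72.6 and 42.6 CPM in the Slit2fl/fl libraries, against 67.1, 105.4 and 141 CPM in Slit2th, and the groups overlapped.

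Network collagens gave 4 values above 0 and 1 below 0 among the 5 log2 fold changes fitted. Col4a1 and Col4a2 encode the chains of the common type IV collagen trimer of basement membranes. They lie head to head on chromosome 8 (GRCm38), Col4a1 at 11198423 to 11312826 on the minus strand and Col4a2 at 11312805 to 11449287 on the plus strand, and their starts overlap by 22 bases. Col4a1 measured 81.0, 162 and 151 CPM in the Slit2fl/fl libraries, against 131.5, 156.5 and 210.5 CPM in Slit2th. Col4a2 measured 252, 119.9 and 152 CPM in the Slit2fl/fl libraries, against 49.4, 57.3 and 66.0 CPM in Slit2th. The Col4a1 values overlapped between the genotypes, whereas each Slit2th library held less Col4a2 than each Slit2fl/fl library. The log2 fold change was 0.34 ± 0.38 (SE) for Col4a1 and -1.60 ± 0.38 for Col4a2, and the latter had an edgeR p of 0.00236 unadjusted, 0.422 adjusted.

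Within each library the ratio of Col4a1 to Col4a2 per exon length was 0.285, 1.20 and 0.884 in Slit2fl/fl, against 2.36, 2.42 and 2.83 in Slit2th. This ratio does not depend on the scaling of the libraries. Its mean differed by 1.92 on the log2 scale, a 3.77-fold difference, and the groups did not overlap (two-sided exact permutation p = 0.10, the smallest that 3 against 3 libraries can give). Slit2fl/fl replicate 1 had the lowest ratio, and without it the difference was 1.30 on the log2 scale. The ratio was chosen after values were seen, so its permutation p is a description only. Of the other ratios compared, that of Col3a1 to Col1a1 differed by 0.97 on the log2 scale (two-sided exact permutation p = 0.30). The ratio of Col5a2 to Col5a1 differed by -0.004. The antisense gene Gm15419 also overlaps Col4a2, and without knowledge of the strand setting its reads could not be separated.

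**Figure D3:**
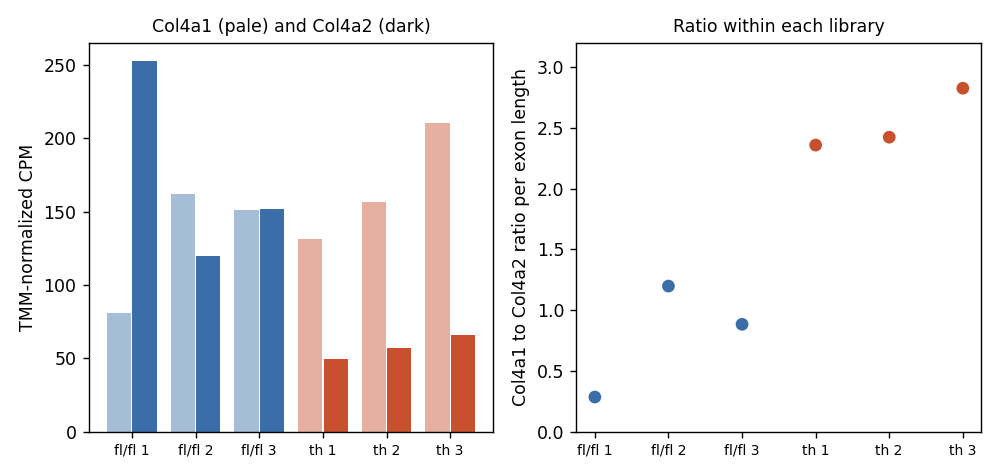
Left, CPM of Col4a1 (pale bars) and Col4a2 (dark bars) in each library, blue for Slit2fl/fl and red for Slit2th. Right, the ratio of Col4a1 to Col4a2 per exon length in each library, which is at most 1.20 in the Slit2fl/fl libraries and at least 2.36 in the Slit2th libraries.

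Among the other network chains, Col4a5 of the X-linked type IV collagen measured 4.16, 11.7 and 11.4 CPM in the Slit2fl/fl libraries, against 22.9, 15.7 and 13.0 CPM in Slit2th. Every Slit2th library lay above the others, but the log2 fold change was 0.94 ± 0.53 (SE) with an unadjusted p of 0.109 in edgeR. Col8a1, a short network chain of vessel walls and the eye, measured 61.5, 165 and 132.5 CPM in the Slit2fl/fl libraries, against 95.3, 219 and 251 CPM in Slit2th, with overlapping groups. Col4a4 was detected at 0 to 5.64 CPM, and Col4a3, Col4a6, Col8a2 and Col10a1 fell under the filter. The summed network CPM was 401, 459.5 and 450.3 in Slit2fl/fl, against 301, 452 and 549 in Slit2th.

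FACIT collagens were low, with 2 positive and 2 negative values of 4 tested and a median log2 fold change of 0.08. This split depended on the setting, since the median lay between -0.28 and 0.43 over the alternatives and from 2 to 4 of the genes were positive. Col14a1, the main FACIT in these cultures, measured 61.2, 73.9 and 72.8 CPM in the Slit2fl/fl libraries, against 53.0, 101 and 97.6 CPM in Slit2th. Col16a1 measured 12.2, 1.30 and 11.4 CPM in the Slit2fl/fl libraries, against 4.41, 8.59 and 3.95 CPM in Slit2th. The groups overlapped for both. Col12a1 and Col9a3 had log2 fold changes of 0.68 ± 0.60 and -0.12 ± 0.83 (SE).

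In the remaining group the multiplexins Col15a1 and Col18a1, basement membrane collagens that carry heparan or chondroitin sulfate chains, had opposite signs. Col15a1, on chromosome 4 at 47208161 to 47313167, measured 21.5, 16.2 and 11.4 CPM in the Slit2fl/fl libraries, against 28.2, 50.1 and 57.0 CPM in Slit2th, and the groups did not overlap. Its window, shown above, held none of the motifs searched. The log2 fold change was 1.46 ± 0.44 (SE) (edgeR unadjusted p = 0.00848, adjusted p = 0.422). Gm12426 overlaps it on the opposite strand. Col18a1, the precursor of endostatin, measured 327, 144 and 117 CPM in the Slit2fl/fl libraries, against 199, 149 and 146 CPM in Slit2th. The first Slit2fl/fl library stood far above the others, and the log2 fold change of -0.25 ± 0.44 became 0.33 without it.

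Type VI collagen forms beaded microfilaments around cells. Col6a3 measured 10.9, 53.8 and 26.7 CPM in the Slit2fl/fl libraries, against 36.2, 34.8 and 40.6 CPM in Slit2th. Col6a1 measured 10.9, 9.72 and 4.55 CPM in the Slit2fl/fl libraries, against 25.6, 13.8 and 10.7 CPM in Slit2th. Col6a2 measured 8.97, 6.48 and 7.39 CPM in the Slit2fl/fl libraries, against 2.65, 11.9 and 11.3 CPM in Slit2th. The groups overlapped for all 3 chains. Col28a1, which belongs to the von Willebrand domain collagens and is known from Schwann cells of peripheral nerve, measured 2.88, 8.43 and 2.27 CPM in the Slit2fl/fl libraries, against 7.06, 10.5 and 17.5 CPM in Slit2th. Its log2 fold change was 1.41 ± 0.65 (SE), with an unadjusted p of 0.0557 in edgeR. It was 2.14 without Slit2fl/fl replicate 2 and 0.95 without Slit2th replicate 3. Col25a1, a transmembrane collagen of neurons, measured 7.05, 8.43 and 14.8 CPM in the Slit2fl/fl libraries, against 7.94, 19.1 and 11.9 CPM in Slit2th. Col7a1, the chain of anchoring fibrils, was at 0.569 to 6.40 CPM. The sum of this mixed group was 395.5, 251.5 and 184 CPM in the Slit2fl/fl libraries, against 309, 290.1 and 302 CPM in Slit2th.

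The first replicates bore on these results. In a fit without the first replicate of either genotype, edgeR passed 2 of the 25 collagen genes at an adjusted p under 0.05, beside 2.94% of 12541 genes. Col15a1 rose, with a log2 fold change of 1.95 and an adjusted p of 0.00539, and Col4a2 fell by 1.15 on the log2 scale with an adjusted p of 0.0152. At an unadjusted p under 0.05 this fit listed 9 collagen genes, 8 higher and 1 lower, beside 17.2% of all genes. Over all alternatives Col15a1 lay between 0.99 and 1.95, Col11a1 between 1.32 and 1.96, Col3a1 between 0.81 and 1.70 and Col4a2 between -1.86 and -1.08.

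The GC content of the longest transcript moved with the fold changes over all genes. The Spearman correlation was -0.34 across the tested genes, which are not independent replicates. It was -0.06 without Slit2fl/fl replicate 1 and -0.17 without replicate 1 of both groups, so it depended largely on Slit2fl/fl replicate 1. The tested collagens are rich in GC, with a median of 55.7% against 48.8% for all tested genes. With offsets corrected for GC content, 7 of the 25 collagens had an unadjusted p under 0.05, 6 higher and 1 lower, beside 11.0% of all genes, and their median log2 fold change was 0.68. No collagen gene passed the adjusted threshold in that fit. Under the GC correction Col4a2 had a log2 fold change of -1.08 and Col4a1 one of 0.61.

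Fibroblast markers moved with the fibrillar sum. All 19 measured markers of this list were detected, and their sum was 709, 1091 and 972 CPM in the Slit2fl/fl libraries, against 1180, 1304 and 1554 CPM in Slit2th. The Slit2th libraries were higher, as for fibrillar collagen. The ratio of the fibrillar sum to the fibroblast sum was 3.47, 3.17 and 2.92 in Slit2fl/fl, against 2.95, 3.21 and 2.82 in Slit2th, and overlapped. Dcn, the small proteoglycan decorin, gave 47.1% of the marker sum. The glia sum given above was also higher in every Slit2th library. Macrophage markers, 12 of 12 detected, summed to 27.9 to 89.0 CPM in Slit2fl/fl, against 634, 114 and 133 CPM in Slit2th. Osteoblast markers, 6 of 8 detected but only 2 over the filter, summed to 2406 to 7757 CPM and 10120 to 11780 CPM. Spp1, which glia and macrophages also express, gave 87.3% of the sum, and Bglap and Bglap2 were at 0. Endothelial markers, 9 of 9 detected but only 4 over the filter, summed to 130, 55.7 and 42.6 CPM in Slit2fl/fl. In Slit2th they summed to 56.5, 49.1 and 56.4 CPM, and Egfl7 gave 66.4% of the sum. Mural markers, 9 of 9 detected but only 5 over the filter, summed to 97.7, 35.65 and 18.2 CPM in Slit2fl/fl. In Slit2th they summed to 16.8, 21.5 and 40.1 CPM, and Acta2 gave 55.1% of the sum. In both lists Slit2fl/fl replicate 1 was highest and the groups overlapped. The part of these cell types in the collagen values was not tested.

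**Figure D4:**
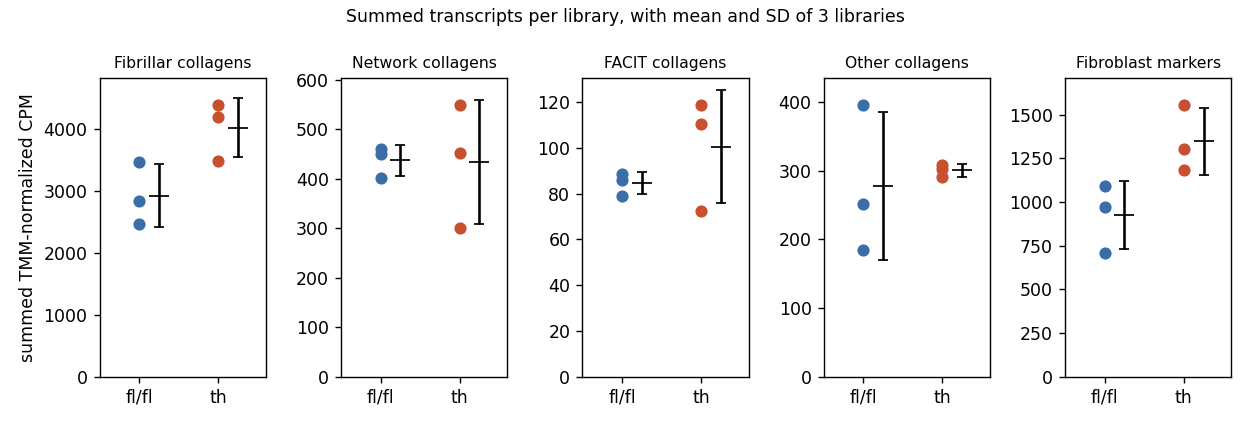
Summed CPM per library of the 4 structural groups of collagens and of the fibroblast markers, each on its own axis from 0. Points are libraries, and the black mark with bars is the mean and SD of 3 libraries. The fibrillar sums and the fibroblast sums are higher in every Slit2th library, and the network, FACIT and other sums overlap between the genotypes. The fibrillar sums of Slit2fl/fl replicate 2 and Slit2th replicate 1 are nearly level, at 3460 and 3476 CPM.

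Collagen chains need a set of enzymes and partners before and after secretion, and 54 such genes were listed in 5 groups, 40 of them tested. None passed an adjusted p of 0.05 in edgeR, 2 were higher and 1 lower at an unadjusted p under 0.05 against the 10.8% of all genes given above, and their median log2 fold change was 0.06. Of the crosslinking enzymes 4 of 5 were tested, 2 with a positive value. Loxl1 also stands in the fibroblast list. Lox, lysyl oxidase, which crosslinks collagen and elastin, measured 8.01, 30.5 and 27.3 CPM in the Slit2fl/fl libraries, against 73.3, 103.5 and 116 CPM in Slit2th. Every Slit2th library held more than 2 times the highest Slit2fl/fl value. Its log2 fold change was 2.17 ± 0.52 (SE), with an adjusted p of 0.422 in edgeR, 0.0350 in DESeq2 and 0.000778 in edgeR without replicate 1 of both groups. Loxl2, the second enzyme of the list by level, measured 15.1 to 30.5 CPM in Slit2fl/fl, against 35.3 to 47.4 CPM in Slit2th.

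Chain hydroxylation and folding genes, 18 of 20 tested, split into 9 positive and 9 negative values. Serpinh1, the collagen chaperone HSP47, measured 178 to 202 CPM in Slit2fl/fl, against 156 to 213 CPM in Slit2th. P4hb, a subunit of prolyl hydroxylase, measured 84.9 to 217 CPM and 69.7 to 143 CPM. Fkbp10, a prolyl isomerase of the endoplasmic reticulum, measured 18.6, 11.7 and 17.1 CPM in the Slit2fl/fl libraries, against 1.77, 3.82 and 11.3 CPM in Slit2th, with a log2 fold change of -1.45 ± 0.63 (SE) and an unadjusted p of 0.0481 in edgeR. Without Slit2th replicate 3, its highest Slit2th library, the value was -2.48, and without Slit2th replicate 1 it was -1.09. The Serpinh1 and P4hb values overlapped between the genotypes, and those of Fkbp10 did not.

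Propeptide removal enzymes, 6 of 8 measured genes tested, had 3 positive and 3 negative values. Bmp1, which cleaves the C-propeptide, measured 87.6 to 143 CPM in Slit2fl/fl, against 86.9 to 246 CPM in Slit2th, and its enhancer Pcolce2 62.2 to 92.7 CPM and 55.3 to 201 CPM. For both genes Slit2th replicate 1 was the highest library. Of the collagen receptors, 9 of 11 measured were tested and 8 had positive values. Itga1, the integrin chain that binds collagen IV and I, measured 9.29, 8.43 and 13.1 CPM in the Slit2fl/fl libraries, against 17.7, 21.5 and 27.1 CPM in Slit2th, with a log2 fold change of 1.11 ± 0.42 (SE) and an unadjusted p of 0.0269 in edgeR. Its partner Itgb1 measured 393 to 513 CPM in Slit2fl/fl, against 305 to 310 CPM in Slit2th, without overlap but in the other direction. Adgrg6, a receptor of Schwann cells that binds collagen IV, measured 73.3 to 146.5 CPM and 149 to 228 CPM. Of the cleavage enzymes, 3 of 6 measured were tested and 2 had positive values. Mmp14, a membrane-bound collagenase, measured 133 to 608 CPM in Slit2fl/fl, against 708 to 999.6 CPM in Slit2th, and the gelatinase Mmp2 166 to 467 CPM and 113 to 459 CPM.

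**Figure D5:**
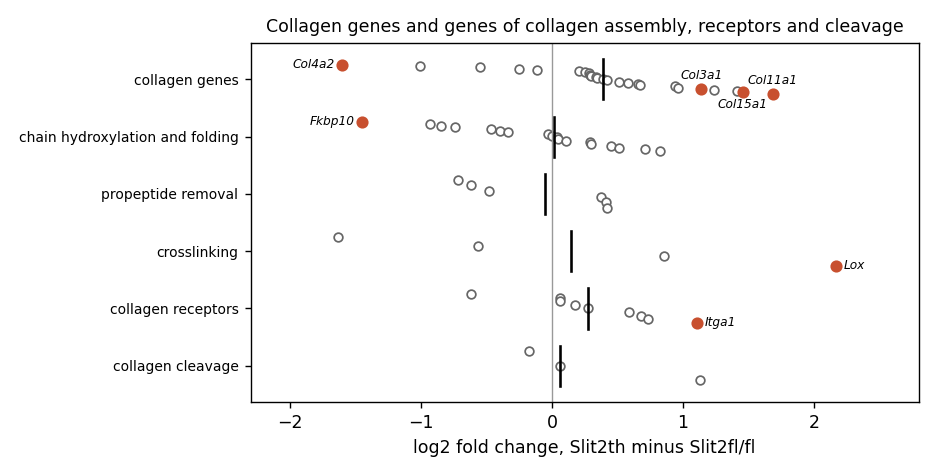
Fitted log2 fold change, Slit2th minus Slit2fl/fl, of the tested collagen genes and of the tested genes in 5 lists of collagen assembly, receptors and cleavage. Red points have an unadjusted p under 0.05 in edgeR and carry their names, and black lines are list medians, 0.39 for the collagens and 0.06 over all 5 lists together.

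Other collagen genes also lie within 100 kb of each other. Col3a1 and Col5a2 lie tail to tail on chromosome 1, 24614 bases apart, with log2 fold changes of 1.14 and 0.51. Col6a2 and Col6a1 lie in tandem on chromosome 10, 85161 bases apart, with values of 0.21 and 0.96. The values of both pairs were positive, unlike those of Col4a1 and Col4a2. Of the head-to-head pairs, Col4a4 was tested without Col4a3 and Col4a5 without Col4a6. Col9a1 with Col19a1, and Col6a5 with Col6a4, also neighbour each other and were all under the filter.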

How the data were processed

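RNA-Seq was analysed from the deposited counts of 20173 genes in 6 libraries, 3 Slit2fl/fl and 3 Slit2th. The authors prepared libraries with the Illumina TruSeq kit, aligned reads with HISAT2 to mm10 and deposited whole-number read counts, not normalized. The submitters' processing notes name GRCm39 instead of mm10. The counting program and the strand setting are not given in the sources used here. The summed counts of the Slit2fl/fl libraries were 3155406, 1533367 and 1769545, against 1255939, 1999485 and 1679503 for Slit2th. A count of 3 in a single library corresponds to 0.951 to 2.39 CPM, a floor for counting error only, since molecules were not marked by identifiers.

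Gene positions, exon lengths and GC content came from GENCODE M21 (GRCm38), which held 20159 of the identifiers. The software was edgeR 4.0.16, with DESeq2 1.42.0 and limma 3.58.1, under R 4.3.3. Genes with at least 1 CPM in at least 3 libraries were kept, scaled by TMM and compared by edgeR's quasi-likelihood test over the whole table without covariates, with Benjamini-Hochberg adjustment at 0.05. The SE given with a log2 fold change is its absolute value divided by the square root of the F statistic of that test. The test was also run on simulated counts with the same dispersion for every gene. Those counts held no trend with GC content and no deviating library, so that run does not bear on these features. Ratios within libraries were compared by two-sided exact permutation tests.

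The collagen genes, their groups, the pathway lists and the marker lists were chosen with earlier results of these data known. Values in each library are given for the 20 collagen genes of highest mean CPM, which include every collagen gene with an unadjusted p under 0.05. From each pathway list the 2 genes of highest mean CPM and every gene with an unadjusted p under 0.05 are named. Those with an unadjusted p under 0.05 have values in each library, and the rest are given as ranges. The ratios between genes, and the longest coding transcript as an alternative length, were chosen after values were seen. Col6a6 was not analysed here. Protein sequences were not used here. Alternatives were other scalings, DESeq2, other filters, offsets corrected for GC content or length, a replicate block and omission of libraries.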

Additional observations from a re-analysis of the deposited data

How the results depend on the processing

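Of 576 log2 fold changes, those of 32 named genes under 18 alternatives, 544 kept their direction and side of the threshold, 28 changed sign and 4 newly passed the threshold. The DESeq2 values of Col16a1, Col28a1 and Col6a2 had no adjusted p and are counted among the 544 by direction alone. The count of collagen genes with an adjusted p under 0.05 was 0 in every alternative except without replicate 1 of both groups, where it was 2. At an unadjusted p under 0.05, the count of 4 (10.8% of all genes) became 9 (17.2%) without replicate 1 and 2 (5.61%) without replicate 3 of both groups, 7 (11.0%) with GC-corrected offsets and 12 (12.1%; 11 higher, 1 lower) with a replicate block and GC-corrected offsets, the share of all genes tested in each fit standing in brackets. Leaving out single libraries gave 3 to 5, beside 7.23% to 13.8% of all genes. Of all genes tested, 34 passed in DESeq2, 7 without a filter on low counts, 369 without replicate 1 of both groups, and 0 to 1 when single libraries were left out (1 without Slit2fl/fl replicate 1). The median log2 fold change of the collagen genes, 0.389, became 0.655 without the filter (40 genes), 0.679 with GC correction and 0.769 with the block and GC correction. The 7 genes whose groups do not overlap became 16, 13 and 10 without replicate 1, 2 or 3 of both groups, where 47.4%, 39.5% and 36.8% of all genes did not overlap, against 18.5% with all libraries. They became 7 to 13 without single libraries, beside 25.5% to 36.1% of all genes (13 without Slit2fl/fl replicate 2, beside 32.2%, or Slit2th replicate 1, beside 36.1%). Lox passed in DESeq2 (log2 fold change 2.19, adjusted p 0.0350) and without replicate 1 of both groups (1.91); in the latter Col15a1 (1.95) and Col4a2 (-1.15) also passed.

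None of the 10 genes that changed sign passed the threshold. With GC-corrected offsets Col18a1 was 0.31, Mmp2 0.26 and Serpinh1 0.30, and with the block in addition Col16a1 was 0.08, Col18a1 0.32, Mmp2 0.08 and Serpinh1 0.35. With length-corrected offsets Serpinh1 was 0.18. Without replicate 1 of both groups Col18a1 was 0.17, Col6a3 -0.10, Pcolce2 -0.31 and Serpinh1 0.02; without replicate 2 Col25a1 was -0.10 and Col6a2 -0.18, and without replicate 3 Col6a2 was -0.12. Leaving out single libraries gave ranges of -0.59 to 0.33 for Col18a1, -0.04 to 0.69 for Col25a1, -0.15 to 0.58 for Col6a2, -0.12 to 0.99 for Col6a3, -0.24 to 0.68 for Bmp1, -1.05 to 0.48 for Mmp2, -0.77 to 0.20 for P4hb, -0.38 to 0.73 for Pcolce2 and -0.18 to 0.06 for Serpinh1. The cause of these changes was not tested.

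The replicate block left 4 collagen genes at an unadjusted p under 0.05, beside 13.3% of all genes, and 0 at an adjusted p, with a median of 0.417. Libraries with the same number correlated at 0.292, 0.245 and 0.0808 in their deviations from the group means, and not every library correlated best with its own number, so the numbers were not taken as pairs. With totals between 1255939 and 3155406 counts and a biological coefficient of variation of 50.4%, collagen genes of a few CPM were measured with wide errors. An exact test of 3 against 3 libraries cannot go below 0.10.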
